A study of Mus musculus with 7 samples.

Results

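The genes examined here handle extracellular ATP and adenosine. They were chosen by name, as Entpd1 (encoding CD39), Nt5e (CD73), Ada, Adk, Dpp4, Adora2a, Adora2b, P2rx4, P2rx7 and P2ry10, and all 10 were found among the 25469 genes of the deposited series table. RNA-sequencing was done on splenic CD4+CD25+ cells of wild-type mice, with 3 aged libraries from mice of 18 months and 4 young libraries from mice of 8 weeks. The labels call them biological replicates and do not say whether animals were pooled. The study's methods describe male C57BL/6 mice and give the age of the young ones as 10 weeks. For splenic Tregs used in transfusion the methods name an isolation kit, without saying whether the sequenced cells were taken the same way. The label rests on CD4 and CD25 and not on Foxp3, so other spleen cells could be carried along. Each question below is whether a transcript differed between aged and young Tregs.

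ATP that leaves stressed or activated cells acts as a danger signal. A pair of enzymes on the cell surface takes it apart by stripping its phosphates, the terminal ones by CD39 and the last by CD73, which leaves adenosine. Adenosine in turn acts on G protein-coupled receptors, of which A2a raises cAMP in T cells and dampens their activation. Tregs are known to carry both enzymes and to use them in suppression. Adenosine is cleared by adenosine deaminase and, inside the cell, by adenosine kinase, while ATP itself opens the P2X channels.

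The libraries held 10734234 to 13649310 reads on genes, every young library more than every aged one. Levels are given as counts scaled to library size (CPM, TMM scale). As the limit of detection 3 counts were used, equal to 0.21 to 0.302 CPM. Such limits cover counting error only. Il2ra (CD25) and Cd4, which define the labelled cells, and Foxp3 were read in every library, at no less than 327, 434 and 394 CPM, and none of them was called. Il2ra averaged 380.3 CPM in aged and 579 CPM in young libraries (log2 fold change -0.61, adjusted p = 0.0588), and Cd4 had a log2 fold change of -0.30 (adjusted p = 0.117). Ctla4 and Ikzf2, further Treg genes, were not called either, with log2 fold changes of 0.86 (adjusted p = 0.103) and 0.46 (adjusted p = 0.0942). Mitochondrial genes took 5.08% to 10.7% of the gene counts in aged and 2.63% to 3.23% in young libraries. Of 13904 genes tested, 2327 were called by edgeR's quasi-likelihood test (Benjamini-Hochberg adjusted p under 0.05), 1362 higher and 965 lower in aged Tregs. After removal of GC content and length trends, an alternative added once results had been seen, the split was 1192 higher and 1493 lower. In bulk RNA, fewer cells of a type and less RNA per cell cannot be told apart.

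Of the 10 genes, 9 passed the filter on low counts and 3 were called. Nt5e and Adora2a rose and Adk fell in aged Tregs, against 16.7% of all genes tested that were called in either direction, 9.80% higher and 6.94% lower. In the same 3 genes no aged library overlapped a young one, as was so for 29.9% of all genes tested. The median log2 fold change was 0.024 over the 9 genes and 0.019 over all genes tested. With 3 against 4 libraries an exact permutation test cannot go below p = 0.0571 (two-sided), the value that Nt5e, Adora2a and Adk each reached.

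**Figure D1:**
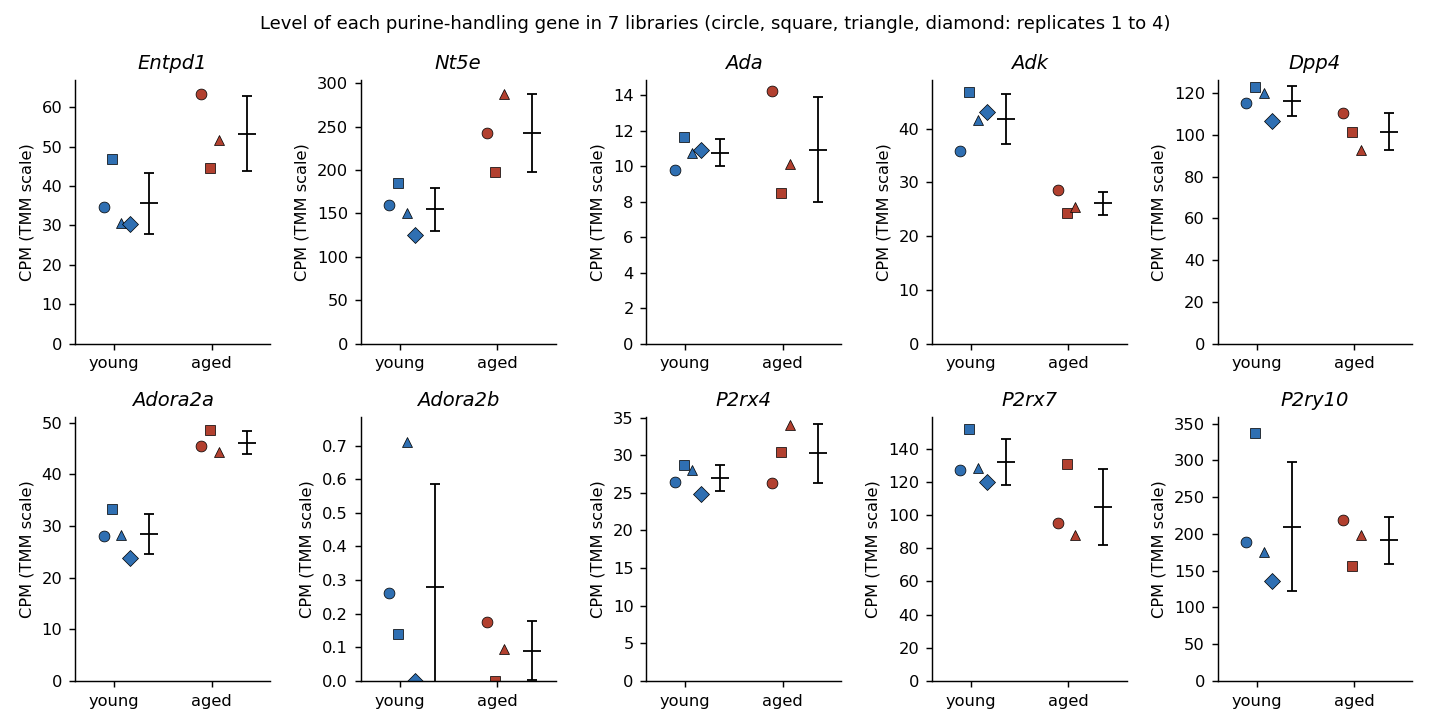
Level of each of the 10 genes (CPM on the TMM scale) in 4 young (blue) and 3 aged (red) libraries, with markers for the replicate number and the mean ± SD at the right of each group. Nt5e and Adora2a lie higher and Adk lower in every aged library than in any young one, and the other genes overlap.

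Transcripts of the enzyme pair that makes adenosine from ATP were both more abundant on average in aged Tregs, and only that of Nt5e passed the test. Nt5e (ENSMUSG00000032420, chromosome 9, 88327197 to 88372092 of GRCm38) was read at 243, 198 and 288 CPM in the aged libraries, given here in the order of their replicate numbers. In the young libraries it was at 159.9, 185, 151 and 125 CPM. All aged libraries lay above all young ones, the closest pair being aged replicate 2 and young replicate 2. The means were 243 ± 44.9 CPM (SD, n = 3) and 155 ± 24.8 CPM (SD, n = 4), a fold of 1.57 and a log2 fold change of 0.65 (SE, the standard error, 0.165, 95% interval 0.27 to 1.03, adjusted p = 0.0318, edgeR's quasi-likelihood test). The call depended on single libraries. It was lost without aged replicate 3 (0.51, adjusted p = 0.107), young replicate 1 (0.67, adjusted p = 0.0691), young replicate 3 (0.64, adjusted p = 0.084) or young replicate 4 (0.56, adjusted p = 0.0778), while adjusted p ran from 0.00382 to 0.181 over 16 alternatives and the direction held in each.

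Entpd1 (ENSMUSG00000048120, chromosome 19, 40612366 to 40741602) was read at 63.4, 44.6 and 51.7 CPM in the aged and at 34.6, 46.7, 30.7 and 30.3 CPM in the young libraries. Young replicate 2 lay within the aged range, above aged replicate 2, and the other young libraries lay below it. The means of 53.2 ± 9.51 CPM (SD, n = 3) and 35.6 ± 7.68 CPM (SD, n = 4) gave a log2 fold change of 0.58 (SE 0.181, 95% interval 0.17 to 0.99), with an adjusted p of 0.0602 (edgeR), so that Entpd1 was not called. Leaving out young replicate 2 gave a log2 fold change of 0.74 and a call (adjusted p = 0.0165), and DESeq2 called it too (0.56, adjusted p = 0.0316), in a range over the alternatives of 0.0165 to 0.23.

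Entpd1 has 2 start sites in the RefSeq annotation of GRCm38.p6, and the gene count sums over both. The 250 bases before each are shown, since the gene could be read from either. In capitals are the letters TGACG (as CGTCA where they lie on the opposite strand), the core of a cAMP response element. The windows lie on the plus strand at chr19:40612116-40612365 and chr19:40659520-40659769.
Entpd1 upstream start: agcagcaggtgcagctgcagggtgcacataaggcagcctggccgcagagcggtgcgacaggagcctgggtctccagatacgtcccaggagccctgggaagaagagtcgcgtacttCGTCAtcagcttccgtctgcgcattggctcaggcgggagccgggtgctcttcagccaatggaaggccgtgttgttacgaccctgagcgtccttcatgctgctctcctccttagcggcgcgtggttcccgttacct
Entpd1 downstream start: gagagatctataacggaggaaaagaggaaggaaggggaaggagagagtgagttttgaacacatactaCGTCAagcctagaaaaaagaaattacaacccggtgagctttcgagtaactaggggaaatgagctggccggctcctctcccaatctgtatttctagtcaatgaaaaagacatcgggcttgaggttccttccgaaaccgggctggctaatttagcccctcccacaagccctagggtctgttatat
Each held these letters once, with the first base of the match 135 and 183 bases before the start, and 17.8% of the 32851 windows of this length before RefSeq starts hold them on either strand. Neither held a GC box (GGGCGG on either strand), which stands in 32.7% of windows, and their GC contents were 62.4% and 47.2%. The window before the RefSeq start of Nt5e held 4 GC boxes and no TGACG, but it begins after the GENCODE start of the gene given above and so lies within it. All but Adora2a, 9 of the 10 genes, matched the table, with 13 windows, of which 5 held TGACG and 6 a GC box. The match is of letters only.

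Within a library, the counts of Nt5e and Entpd1 can be set against each other without any scaling. Their ratio was 3.84, 4.44 and 5.57 in the aged and 4.62, 3.95, 4.91 and 4.11 in the young libraries. The groups overlapped, with geometric means of 4.56 and 4.38 and a difference of 0.057 on the log2 scale (exact permutation test, two-sided, p = 0.743, n = 3 and 4). It was -0.087 without aged replicate 3. Foxp3, the lineage factor of Tregs, had a log2 fold change of 0.21 (adjusted p = 0.409). Ratios to Foxp3, added after the data were seen, did not overlap between ages, at 0.391 to 0.644 in aged and 0.315 to 0.383 in young libraries for Nt5e. For Entpd1 they were 0.0933 to 0.116 and 0.0725 to 0.0902. Each reached the smallest p of the exact permutation test, 0.0571, or 0.0714 adjusted over the 5 ratios computed. Other genes cover 31.5% of the Foxp3 exon length, and reads on the shared stretches were left out by the counting, at either age.

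**Figure D2:**
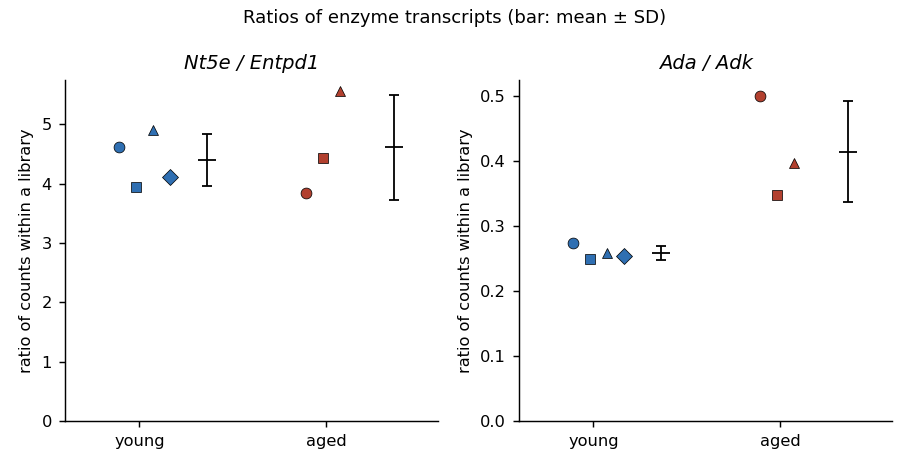
Ratio of Nt5e to Entpd1 and of Ada to Adk counts in each library (points, replicates by marker) with mean ± SD. The first pair overlaps between ages, and the ratio of Ada to Adk is higher in each aged library (0.347 to 0.5) than in any young one (0.249 to 0.274).

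Of the genes that dispose of adenosine, the kinase fell and the deaminase was not called, nor was Dpp4, whose product binds the deaminase in human but not in mouse cells. Adk (ENSMUSG00000039197, chromosome 14, 21052574 to 21448569), which phosphorylates adenosine back to AMP, was at 28.5, 24.4 and 25.5 CPM in the aged libraries. The young libraries held 35.7, 46.8, 41.6 and 43.0 CPM. The highest aged value stayed below the lowest young one, that of young replicate 1. Its mean of 26.1 ± 2.13 CPM (SD, n = 3) in aged Tregs was, against 41.8 ± 4.59 CPM (SD, n = 4) in young ones, a fold of 0.625 and a log2 fold change of -0.68 (SE 0.121, 95% interval -0.95 to -0.40, adjusted p = 0.00833, edgeR). Adk was called in each of 7 fits that left out a library, at -0.75 to -0.62.

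Adk also has 2 RefSeq starts, known to give a longer nuclear and a shorter cytosolic form of the enzyme, and the counts do not separate them. The windows, both on the plus strand, are at chr14:21052324-21052573 and chr14:21075902-21076151 and are shown for comparison with those of Entpd1, with TGACG in capitals.
Adk upstream start: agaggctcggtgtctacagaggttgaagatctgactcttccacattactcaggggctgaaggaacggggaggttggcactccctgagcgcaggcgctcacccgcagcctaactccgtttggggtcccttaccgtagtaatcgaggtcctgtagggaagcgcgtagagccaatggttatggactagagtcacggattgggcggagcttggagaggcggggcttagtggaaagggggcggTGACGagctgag
Adk downstream start: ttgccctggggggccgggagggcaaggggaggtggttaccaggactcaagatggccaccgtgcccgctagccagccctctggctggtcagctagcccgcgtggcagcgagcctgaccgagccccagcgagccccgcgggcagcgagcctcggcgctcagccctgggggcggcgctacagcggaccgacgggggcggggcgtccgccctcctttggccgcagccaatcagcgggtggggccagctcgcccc
TGACG stood once in the upstream window, 12 bases before the start, and not in the downstream one. GC boxes numbered 2 and 3, and the GC contents were 58.8% and 75.2%.

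Ada (ENSMUSG00000017697, chromosome 2, 163726584 to 163750239), which deaminates adenosine to inosine, was at 14.2, 8.46 and 10.1 CPM in aged and 9.79, 11.6, 10.7 and 10.9 CPM in young Tregs. The aged libraries lay on both sides of the young range. The log2 fold change was 0.02 (SE 0.191, 95% interval -0.41 to 0.46, adjusted p = 0.947, edgeR), and -0.22 (adjusted p = 0.362) without aged replicate 1, which holds the highest value, in a range of adjusted p over the alternatives of 0.362 to 1. The sign of Ada also turned without young replicate 1 (-0.015), with library size as the only scaling and with GC content and length trends removed. The ratio of Ada to Adk was 0.5, 0.347 and 0.397 in the aged and 0.274, 0.249, 0.258 and 0.253 in the young libraries. Its geometric mean was 1.59-fold higher in aged Tregs, 0.67 on the log2 scale, with no overlap (exact permutation test, two-sided, p = 0.0571, the smallest possible, and 0.0714 adjusted over 5 ratios, n = 3 and 4).

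Dpp4 (ENSMUSG00000035000, chromosome 2, 62330073 to 62412231), which encodes the serine peptidase CD26, was at 111, 102 and 92.8 CPM in the aged libraries. In the young libraries it was at 115, 123, 120.4 and 107 CPM, so that aged replicate 1 lay above young replicate 4. The log2 fold change of -0.20 (SE 0.0972, 95% interval -0.42 to 0.03) had an adjusted p of 0.202 (edgeR). An antisense transcript, Gm13561, overlaps 3.67% of its exon length. Counting without strand cannot tell reads of the pair apart there, and reads on the shared stretch were left out, as for Foxp3. Of 5 related peptidase genes tested, edgeR and limma voom called none, beside 16.7% of all genes called by edgeR. Both tests had 4 of them at an unadjusted p under 0.05, beside 32.7% of all genes by edgeR. Log2 fold changes were -0.53 for Prep, -0.31 for Dpp8, -0.30 for Dpp9, 0.34 for Dpp7 and 0.56 for Fap. Without aged replicate 1, Prep, Dpp8 and Dpp9 were called lower, in a fit that called 3058 of 14229 genes. DESeq2 called Prep and Dpp8, and 2910 of 25431 genes in all. Prep was also called with GC content and length trends removed (-0.50, adjusted p = 0.0438), in a range over 16 alternatives of 0.00531 to 0.2.

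Of the adenosine receptors, A2a was the one read in quantity, and its gene rose. Adora2a (ENSMUSG00000020178, chromosome 10, 75316877 to 75334784), which couples to Gs and raises cAMP, was at 45.5, 48.6 and 44.4 CPM in aged Tregs. The young libraries were at 28.1, 33.4, 28.3 and 23.9 CPM. The aged libraries were close together and all above the highest young library, replicate 2. Means were 46.2 ± 2.22 CPM (SD, n = 3) and 28.4 ± 3.88 CPM (SD, n = 4), a fold of 1.63 and a log2 fold change of 0.70 (SE 0.123, 95% interval 0.42 to 0.98, adjusted p = 0.00799, edgeR). Its call also held in each of those fits, at 0.63 to 0.79. Relative to Foxp3, Adora2a was at 0.0732 to 0.102 in aged and 0.0588 to 0.0718 in young libraries, which did not overlap.

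Adora2b (ENSMUSG00000018500, chromosome 11, 62248984 to 62266453), the low-affinity A2B receptor, had 2, 0 and 1 reads in the aged and 3, 2, 9 and 0 reads in the young libraries. Young replicate 3 was the sole library above the limit of 3 counts, and the gene did not pass the filter, so no difference was detectable at this depth. Adora1 and Adora3, the other two receptors of the family, did not pass the filter either, with at most 0.374 and 0.612 CPM in a library.

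None of the receptors for ATP or related ligands among the 10 genes was called. P2rx7 (ENSMUSG00000029468, chromosome 5, 122643911 to 122691432), the channel through which high ATP can kill T cells, was at 95.1, 131 and 88.1 CPM in aged and 127, 152, 129 and 119.8 CPM in young Tregs. Aged replicates 1 and 3 lay below the young range and aged replicate 2 within it. The log2 fold change was -0.33 (SE 0.154, 95% interval -0.68 to 0.02, adjusted p = 0.172, edgeR). Without aged replicate 2 it was -0.53 and called (adjusted p = 0.0324), in a range over the alternatives of 0.0324 to 0.436. P2rx4 (ENSMUSG00000029470, chromosome 5, 122707544 to 122729738), a related channel gene that starts 16111 bases after the end of P2rx7 on the same strand, was at 26.3, 30.4 and 34.1 CPM in the aged libraries. Young libraries held 26.4, 28.7, 28.0 and 24.9 CPM. Aged replicates 2 and 3 were above the young range and aged replicate 1 within it, for a log2 fold change of 0.16 (SE 0.12, 95% interval -0.11 to 0.44, adjusted p = 0.384). These neighbours therefore had fitted changes of opposite sign, neither of which passed the test.

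P2ry10 (ENSMUSG00000050921, chromosome X, 107088492 to 107104974) carries a P2Y name but is known as a receptor for lysophosphatidylserine. It was at 219, 157 and 198 CPM in aged Tregs. In young Tregs it was at 189, 337, 175 and 136 CPM, the widest young spread among the 9 tested of the 10 genes. Young replicate 2 stood above all other libraries, and the rest of the young range enclosed aged replicate 2 only. The log2 fold change was -0.13 (SE 0.286, 95% interval -0.79 to 0.52, adjusted p = 0.791, edgeR), and 0.20 (adjusted p = 0.473) without young replicate 2, in a range over the alternatives of 0.34 to 0.991.

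**Figure D3:**
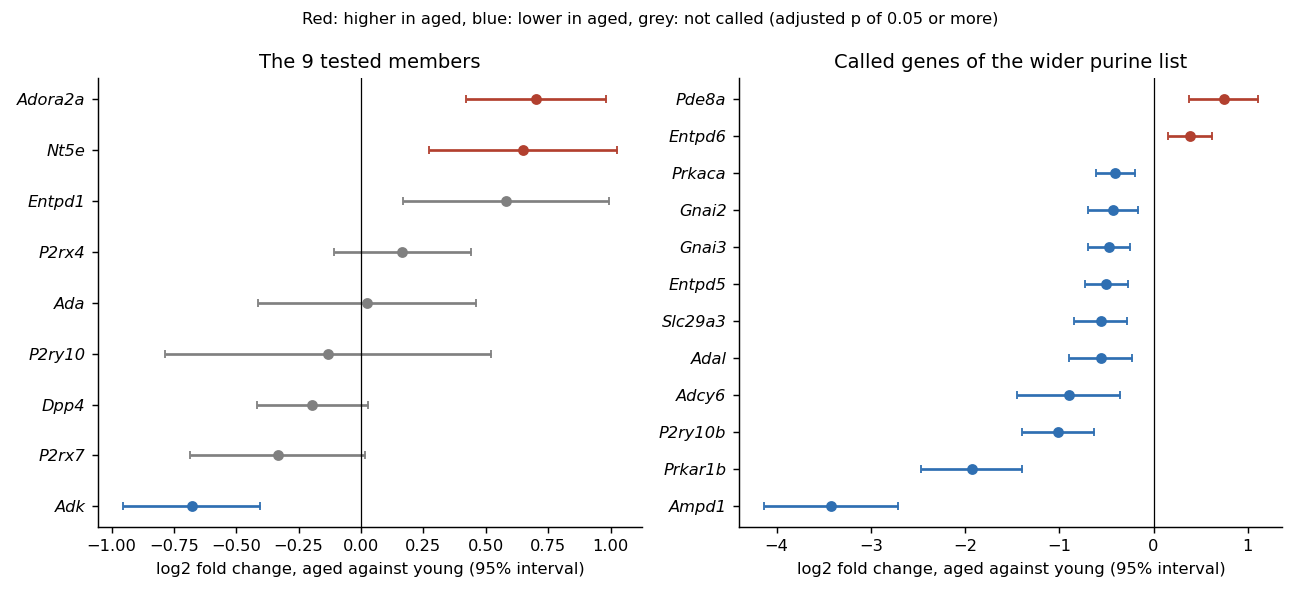
Log2 fold change of aged against young Tregs with its 95% interval for the 9 tested genes (left) and the 12 called genes of the wider purine list (right). Red marks genes called higher, blue genes called lower, and grey genes not called, with Entpd1 grey at 0.58.

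Levels of different genes were compared as CPM per kilobase of exon, with the exons of all annotated transcripts of a gene joined. The order between genes therefore depends on that annotation, since the transcripts present may be shorter. In both ages P2ry10 stood first, at 64.1 ± 10.6 (SD, n = 3) in aged and 70.3 ± 29.5 (SD, n = 4) in young Tregs. In young Tregs P2rx7 followed at 22.1 ± 2.35, then Dpp4 at 18.4 ± 1.13 and Nt5e at 18.0 ± 2.88, and the order of the last pair differed among libraries, with Dpp4 above Nt5e in 2 of 4. In aged Tregs Nt5e was second at 28.2 ± 5.22, above P2rx7 at 17.5 ± 3.85 in all 3 libraries. P2rx7 and Dpp4 (16.1 ± 1.4) were not in the same order in every aged library, nor were Ada (5.46 ± 1.49) and P2rx4 (4.31 ± 0.553). Adora2a (15.1 ± 0.724 aged, 9.27 ± 1.27 young) lay above Entpd1 (9.54 ± 1.70 aged, 6.38 ± 1.38 young) in every library of both ages. Entpd1 lay above Ada in 3 of 4 young libraries and in all aged ones. Adk, at 4.90 ± 0.538, was above P2rx4 in all 4 young libraries, and at 3.06 ± 0.25 below it in all 3 aged ones.

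**Figure D4:**
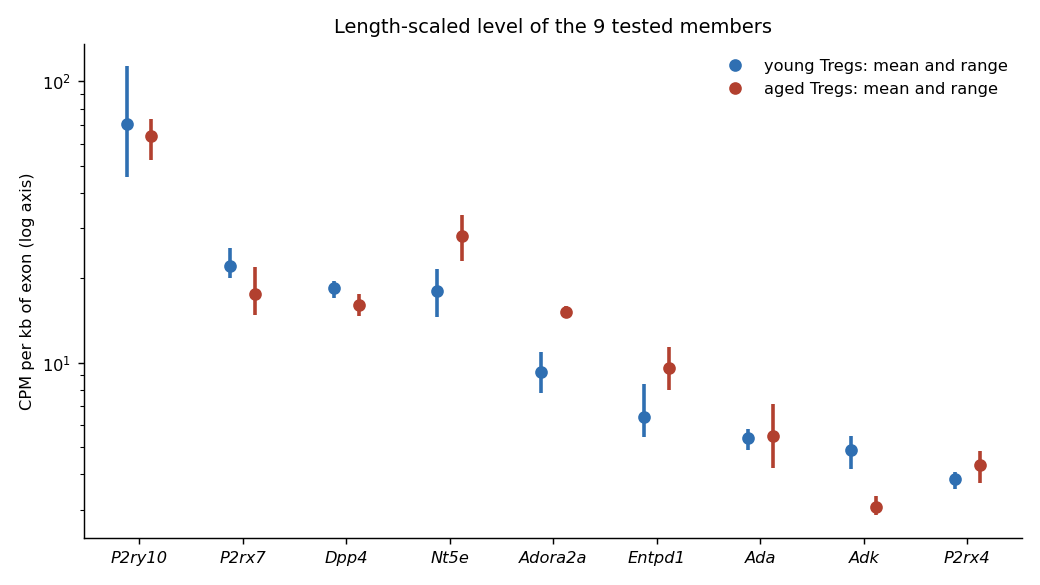
CPM per kilobase of exon (log axis) of the 9 tested genes in young (blue) and aged (red) Tregs, as the mean (point) and range (line) over libraries. Nt5e lies below P2rx7 and Dpp4 on average in young Tregs and above both in aged Tregs, and Adk lies above P2rx4 in young and below it in aged Tregs.

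The libraries of an age differed from each other across the genes. Young replicate 2 was the highest young library for all 9 tested genes, and young replicate 4 the lowest for 7 of them. Among aged libraries, replicate 1 was the highest for 5 genes and replicate 2 the lowest for 5. Young replicate 2 also stood apart in haemoglobin genes, at 1.24% of gene counts against 5.91% to 10.4% in the other young libraries. Its plasma cell marker sum was 1867 CPM, against 245 to 418 CPM in those libraries. Aged replicate 1 was likewise low in haemoglobin genes, at 1.27% against 13.1% and 7.60% in aged replicates 2 and 3. Its mitochondrial share was 10.7%, against 5.08% and 5.53%, and its neutrophil marker sum 5300 CPM, against 1896 and 671 CPM. The summed level of 10 Treg markers (Foxp3, Il2ra, Ikzf2, Ctla4 and others) was also highest in young replicate 2 (3913 CPM) and lowest in young replicate 4 (2451 CPM). It was 3223 to 3716 CPM in the aged libraries. Of the 10 markers, 1 was called, Lrrc32, which was lower, beside 16.7% of all genes tested called and 6.94% called lower. An unadjusted p under 0.05 (edgeR) was reached by 5 of the 10, beside 32.7% of all genes tested. Over the 7 libraries, the genes with the pattern most like that of Entpd1 by Pearson correlation of log2 CPM, among 9548 genes whose mean log2 CPM was at least 3, were Ifngr1 (r = 0.993), Gpr174 (0.989) and Prdm1 (0.981). For Nt5e they were Nceh1 (0.994), Tiam1 (0.988) and Rbpj (0.985). Since 134 and 246 genes had an r above 0.9, and age and depth differ together over the 7 libraries, these are descriptions.

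Transcripts that mark the state of T cells moved with age beside these genes. All 6 naive T cell markers summed here (Ccr7, Tcf7, Lef1, Klf2, S1pr1 and Satb1) were called lower in aged Tregs, beside 6.94% lower calls among all genes tested, with sums of 781 to 935 CPM against 1307 to 1597 CPM. Of 7 memory T cell markers, 4 were called higher, namely S100a4, S100a11, Cxcr3 and Maf, beside 9.80% higher calls among all genes tested. The memory sums overlapped between ages, at 1084 to 1324 CPM in aged and 768 to 1096 CPM in young libraries, and Cd44, Itgb1 and Il7r were not called, with log2 fold changes of 0.29, -0.032 and 0.25. Among cells other than T cells that are known to carry CD39, the 10 macrophage or monocyte markers summed to 413 to 575 CPM in aged and 527 to 619 CPM in young libraries, with Csf1r, Adgre1 and Vcam1 called lower. The 9 B cell markers summed to 1042 to 1941 CPM and 1488 to 2356 CPM, which overlapped. Endothelial markers, of which Emcn was at or under 3 counts in every library, summed to 108 to 128 CPM and 169 to 194 CPM, with no overlap. Pecam1 held most of these sums, at means of 115 and 178 CPM, and was called lower, and Kdr, Cdh5 and Tek, at most at 2.71 CPM in a library, were not called, with log2 fold changes of 1.09, 0.25 and -0.95. Neutrophil markers summed to 671 to 5300 CPM and 306 to 989.5 CPM, with 3 of 9 called higher, and platelet markers summed to 20.2 to 39.5 CPM against 8.20 to 17.3 CPM, with no overlap and Ppbp called higher. The remaining lists summed in aged and young libraries to 1981 to 2188 and 1833 to 2334 CPM (T cell), 616 to 1189 and 245 to 1867 CPM (plasma cell), 41.9 to 63.4 and 60.1 to 79.4 CPM (dendritic cell) and 15.7 to 26.4 and 26.8 to 39.4 CPM (NK cell). Of these lists only the NK cell sums did not overlap. Called higher were Cd3e (T cell), Prdm1 (plasma cell list) and Zbtb46 (dendritic cell), and called lower were Klrb1c (NK cell) and the dendritic cell genes Clec9a, Siglech and Cd209a. The other genes of the plasma cell list, Jchain, Sdc1, Mzb1 and Tnfrsf17, were not called. Prdm1 did not follow Jchain: in young replicate 2, where Jchain was highest (1725 CPM), Prdm1 (36.2 CPM) was below every aged library (38.0 to 58.1 CPM). CD8 T cell markers summed to 45.4 to 82.0 and 48.8 to 92.7 CPM, and erythroid ones to 12707 to 156939 and 12383 to 116177 CPM. The part of these cells in the changes of Nt5e, Adora2a and Adk was not tested.

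The wider list held 97 other genes of nucleotide and adenosine handling, of which 96 were found, 76 were tested and 12 were called, 2 higher and 10 lower in aged Tregs. That is 15.8% of those tested, beside 16.7% of all genes, of which 9.80% were higher and 6.94% lower. The count was 5 without aged replicate 3, and 6, 7 and 6 without young replicates 1, 3 and 4. All genes called fell in the same fits, from 2327 to 1262, 1315, 1270 and 1237. The genes tested had a median log2 fold change of -0.037, against 0.019 over all genes. The largest difference was that of Ampd1, AMP deaminase 1, which turns AMP into IMP. Aged libraries held 4, 5 and 4 of its reads and young ones 67, 60, 49 and 55, so the aged counts stood just above the limit of 3. Its log2 fold change was -3.42 (SE 0.313, adjusted p = 0.000683, edgeR), and it was called in all 7 fits that left out a library. Ahcy, which splits S-adenosylhomocysteine into adenosine and homocysteine, had a log2 fold change of -0.55 (adjusted p = 0.0546) and was called lower in 4 of 16 alternatives, DESeq2 and limma voom among them (range 0.00565 to 0.171). The paralogues Ampd2 and Ampd3 were not called, with log2 fold changes of 0.11 and -0.12.

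On the surface side, none of 9 tested ectoenzymes beyond CD39 and CD73 was called by edgeR, and none had an unadjusted p under 0.05, beside 16.7% and 32.7% of all genes tested. DESeq2 called none of 14, with 1 unadjusted p under 0.05, and limma voom none of 9. They include Enpp1, which releases AMP from ATP (31.1 ± 2.44 CPM aged, 24.5 ± 5.68 CPM young), Cd38, an NAD glycohydrolase (61.9 ± 23.4 and 61.9 ± 6.22 CPM), and Art2b, which ADP-ribosylates P2X7 (26.5 ± 6.81 and 31.6 ± 4.78 CPM). The intracellular relatives of CD39 differed in direction. Entpd5, an enzyme of the endoplasmic reticulum, was lower, at 42.6 ± 5.37 CPM (SD, n = 3) over the aged and 60.4 ± 1.10 CPM (SD, n = 4) over the young libraries, with a log2 fold change of -0.50 (SE 0.1, adjusted p = 0.0132), and was called whichever library was left out. Entpd6 rose from 33.6 ± 3.35 to 43.8 ± 0.419 CPM, a log2 fold change of 0.38 (adjusted p = 0.0377), called in 1 of those 7 fits.

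Among nucleoside carriers, Slc29a3, the lysosomal equilibrative transporter, fell by 0.56 on the log2 scale (adjusted p = 0.0193, called in 2 of 7 fits that left out a library). Slc29a1 and Slc28a2, the more abundant carriers at 58.5 ± 5.58 and 174 ± 7.50 CPM in aged Tregs, were not called. Adal, an adenosine deaminase-like enzyme, had a log2 fold change of -0.56 (adjusted p = 0.0333, called in 1 of 7). Panx1, a channel for ATP release, was at 51.2 ± 6.20 and 54.1 ± 4.29 CPM. No gene of the 6 tested for ATP release was called or had an unadjusted p under 0.05 (edgeR), beside 16.7% and 32.7% of all genes tested. DESeq2 and limma voom called none, each with 1 unadjusted p under 0.05, and 1 gene, Slc17a9, was called lower with GC content and length trends removed and without aged replicate 2.

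The further P2 receptors were scarce. Of 5 other P2X genes, P2rx1 alone passed the filter, at 2.04 ± 0.418 and 1.99 ± 0.888 CPM, and of 7 P2Y genes, 5 passed. None of these 6 was called by edgeR, by DESeq2 or by limma voom, beside 16.7% of all genes called and 32.7% with an unadjusted p under 0.05 by edgeR. P2ry6, a UDP receptor, was the only one with an unadjusted p under 0.05 by edgeR (log2 fold change -1.16, adjusted p = 0.0945). P2ry10b, a relative of P2ry10 that the deposited table lists under the older name A630033H20Rik, was called lower. It was at 7.34, 5.84 and 7.30 CPM in the aged and 13.5, 16.4, 11.9 and 13.3 CPM in the young libraries. No library overlapped, and the log2 fold change of -1.01 (SE 0.168, adjusted p = 0.00642, edgeR) was called in all 7 fits that left out a library. Whether the changes of P2ry10 and P2ry10b differ was not tested. Gpr174, another lysophosphatidylserine receptor, was at 156 ± 19.0 and 115 ± 15.8 CPM (log2 fold change 0.44, adjusted p = 0.0562) and was not called by edgeR. DESeq2 called it (0.41, adjusted p = 0.0379), as did edgeR without young replicate 2 (0.52, adjusted p = 0.0316), in a range over 16 alternatives of 0.0316 to 0.279.

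The list for the cAMP arm holds genes that raise cAMP, as A2a does, genes that oppose it and genes that respond to it. Of its 21 tested genes, 6 were called, 5 of them lower (28.6%, beside 16.7% of all genes tested, 6.94% lower). The count was 2 without aged replicate 3, 3 without young replicate 1, 4 without young replicate 3 and 3 without young replicate 4. Over all genes tested, these fits called 1262, 1315, 1270 and 1237, in the same order, against 2327 with every library. Prkar1b, a regulatory subunit of protein kinase A, showed the largest change, at 1.19 ± 0.132 CPM (SD, n = 3) over the aged and 4.56 ± 0.613 CPM (SD, n = 4) over the young libraries, with a log2 fold change of -1.93 (SE 0.236, adjusted p = 0.0018, edgeR). The catalytic subunit gene Prkaca fell by 0.40 (log2, adjusted p = 0.0189). The adenylyl cyclase gene Adcy6 fell by 0.90 (adjusted p = 0.0364), with aged replicate 2 above young replicate 2. Gnai2 and Gnai3, whose proteins inhibit adenylyl cyclase, fell as well, by 0.43 (adjusted p = 0.0393) and 0.47 (adjusted p = 0.015). Gnas, which encodes the stimulatory G protein, was at 7.97 ± 1.26 CPM in aged and 5.19 ± 0.694 CPM in young libraries, without overlap, and was not called (log2 fold change 0.62, adjusted p = 0.0565). It was called higher in 2 of 16 alternatives, without aged replicate 1 and with GC content and length trends removed, in a range of 0.0314 to 0.183. Overlap of Gnas exons with other genes was not examined, so reads left out on shared stretches are not known. Pde8a, a phosphodiesterase that breaks down cAMP, rose by 0.74 (adjusted p = 0.017). The abundant cyclase gene Adcy7, at 281 ± 17.3 and 273 ± 16.8 CPM, was not called. Left-out libraries spared the calls of Prkar1b and Pde8a in 7 of 7 fits, and those of Gnai3, Prkaca, Adcy6 and Gnai2 in 6, 4, 2 and 1.

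**Figure D5:**
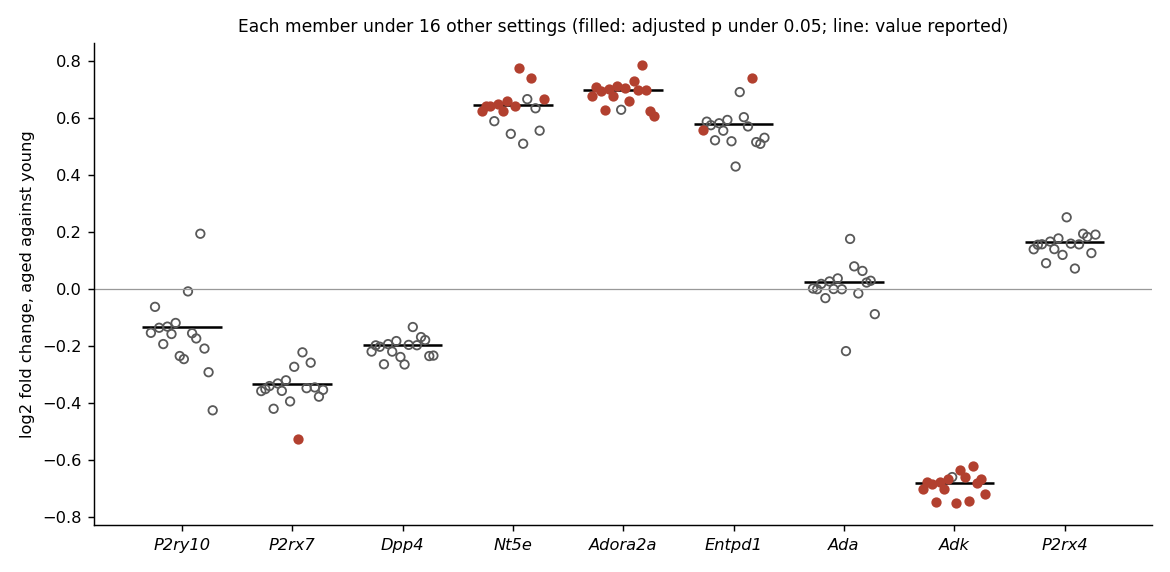
Log2 fold change of each tested gene under 16 other settings (points) and as reported (line), with filled points where the adjusted p was under 0.05. Points for Adora2a, Nt5e and Entpd1 all lie above 0 and those for Adk all below, whereas Ada and P2ry10 have points on both sides.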

How the data were processed

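RNA-sequencing libraries of CD4+CD25+ splenocytes (SMART-Seq cDNA without molecular identifiers) were compared, 3 from aged and 4 from young mice. The authors deposited raw read counts per Ensembl gene for each library, in the layout of HTSeq-count in union mode without strand by their naming. Between 13.1% and 20.9% of reads fell on no gene or several, and were dropped. The authors also deposited a table of signal values, which are the counts divided by a size factor per library (100% of values checked to within 1%). It gave the gene names, and its columns of the authors' fold changes and p-values were not used. The genome build in the submitters' processing notes is mm10, and the aligner is not given in the sources used here. Coordinates and exon lengths are from GENCODE M21 (GRCm38), matched by Ensembl identifier, and promoter windows are from RefSeq.

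The test was the quasi-likelihood one of edgeR (version 4.0.16, under R 4.3.3) after TMM scaling and filterByExpr, with no covariate, with p adjusted by Benjamini-Hochberg over all genes tested. The study's methods name limma, which was run as an alternative (voom, limma 3.58.1) with DESeq2 1.42.0, RLE or library size scaling, no filter or a minimum of 10 counts per library, removal of mitochondrial, haemoglobin and immunoglobulin genes, the replicate number as a block, and each library left out. The test was checked on simulated data. Intervals of log2 fold changes use the moderated degrees of freedom. Log2 CPM for correlations used a prior count of 2. List genes without a match by name were looked up by identifier. The 10 genes, the lists of 97 related and 92 marker genes and the tests were chosen with earlier results of these data known. Named genes are the 10, every called gene of the wider list, and examples of its families not called. The enzyme examples not called, the carriers, Panx1, Slc17a9, Gnas, Adcy7, Ahcy, the relatives of Dpp4, Ampd2 and Ampd3 were picked after their values were seen. A further marker gene is not reported here.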

Additional observations from a re-analysis of the deposited data

Results flagged for a closer look

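Among 23 sets of 4 young libraries examined (9 tested genes, 12 called list genes and 2 ratios), 2 held a library far from the other young ones by Dixon's gap test. Chance alone gives about 1 in 20 such sets. Ampd1 was at 5.86 CPM in young replicate 1 and at 3.87 to 4.20 CPM in the other young libraries. Gnai3 was at 194 CPM in young replicate 2 and at 171 CPM in the others. Groups of 3 were not examined.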

How the results depend on the processing

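Between 1237 (without young replicate 4) and 3058 (without aged replicate 1) genes were called when each library was left out, against 2327 with all. The count of the 10 genes called was 2 to 4 in those fits, and that of the wider list 5 to 15, against 3 and 12. Without aged replicate 3, young replicate 1, 3 or 4 the list gave 5, 6, 7 and 6, where all genes gave 1262, 1315, 1270 and 1237. Adora2a and Adk kept their calls in 15 of 16 alternatives, Nt5e in 10, with library size as the only scaling among those lost (0.59, adjusted p = 0.076). The labels give replicate numbers and do not say whether same-numbered libraries were paired. Deviations of same-numbered libraries correlated at -0.0915, -0.292 and -0.138, and no aged library matched its own number best. So few pairs cannot settle whether a pairing or batch is shared. With the replicate block, 292 genes were called, 2 of the wider list and 0 of the 10 genes by edgeR, of which 4 had an unadjusted p under 0.05. Adk was then -0.66 (adjusted p = 0.101) and Adora2a 0.63 (adjusted p = 0.0626), and the cAMP arm had 1 call. Ada turned sign with library size as the only scaling (-0.031) and with GC content and length trends removed (-0.087), and without young replicate 1 (-0.015) or aged replicate 1, in a range of -0.22 to 0.18 with a library left out. With a library left out, P2ry10 ran from -0.29 to 0.20 and the log2 ratio of Nt5e to Entpd1 from -0.087 to 0.18. P2ry10 was -0.42 with GC content and length trends removed, against -0.13. The split of all genes called turned from 1362 higher and 965 lower to 1192 and 1493 in that fit. The cause was not tested. Depth limits Adora2b, whose counts were 0 to 9.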
